A study of Mus musculus with 4 samples.

Results

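The 4 Id genes, Atoh8 and the E-protein genes Tcf3, Tcf4 and Tcf12 were followed in whole mandibles of mouse embryos at E11.5, in which Bmp4 had been overexpressed or not. The members were all probes whose gene symbol, once old names were replaced by current ones, was that of 1 of these 8 genes. They came to 9 probes of the 29922 on the array, or 8 of 16637 named genes. Tcf3 had 2 probes and each of the other 7 genes had 1. The study compared 2 arrays of control mandibles, labelled wild-type, with 2 arrays of mandibles with conditional Bmp4 overexpression, all on a C57BL/6 background. The overexpressing embryos had received doxycycline for 24 hours, and the labels do not say whether the controls had. The driver of the transgene, the number of embryos behind each array and whether arrays of 1 group came from separate litters do not appear in the labels. The p-values therefore measure only the spread between these arrays, which may be technical, and drug, genotype and Bmp4 cannot be told apart. Each value is a normalised log2 intensity read on a one-colour array, where the highest possible value was 16 and the median of all probes 7.95.

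Id proteins carry a helix-loop-helix (HLH) domain but lack the basic region with which related factors contact DNA. They pair with E proteins, the widely expressed basic HLH (bHLH) factors encoded by Tcf3 (E12 and E47), Tcf4 (E2-2) and Tcf12 (HEB), and the resulting dimers cannot bind the E-box, the short DNA motif that E proteins recognise. E proteins otherwise pair with tissue-restricted bHLH factors such as Twist, Hand and the myogenic factors, and in many cell types Id genes are direct transcriptional targets of BMP-activated Smad proteins. Atoh8 is a bHLH factor related to Drosophila atonal that has been described as BMP-responsive in other tissues.

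Of the 9 member probes, 3 rose, 1 fell and 5 did not pass an adjusted p of 0.05 in limma, where 14.8% of all probes passed, 6.39% by rising and 8.41% by falling. The 3 that rose were those of Id1, Id4 and Atoh8, and the 1 that fell was that of Tcf4, while Id2, Tcf12 and both probes listed for Tcf3 did not pass, and Id3, counted among the 5, lay at the top of the scale. The probes of Id1, Id4 and Tcf4 also met the study's own criterion of 2-fold with p under 0.05, taken here as the unadjusted p, as did 2.6% of all probes. The arrays of both groups did not overlap for 5 of the 9 probes. That was the case for 60.2% of all probes on the array, so the lack of overlap alone says little about a gene here. The Bmp4 probe itself read 11.96 and 12.07 in controls and 15.27 and 15.31 in overexpression samples, a rise of 3.28 ± 0.11 on the log2 scale (SE; limma, adjusted p = 0.00137).

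**Figure D1:**
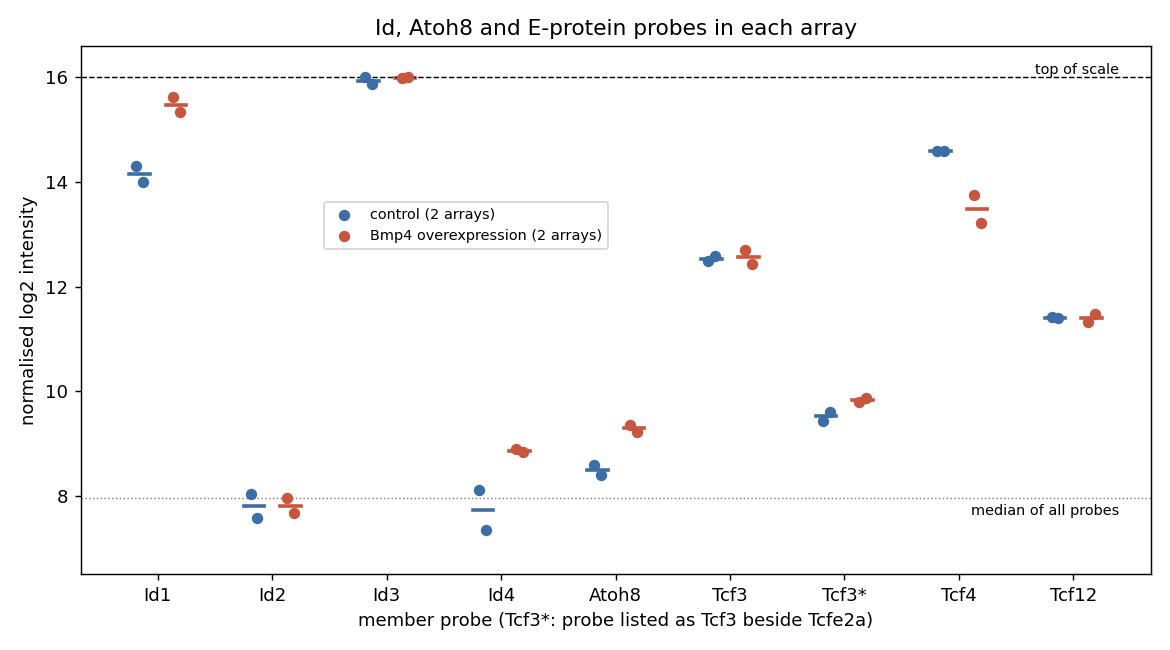
Normalised log2 intensity (vertical axis) of the 9 member probes (horizontal axis) in each of 2 control arrays (blue points) and 2 Bmp4 overexpression arrays (red points), with bars at the group means. Red points lie above blue ones for Id1, Id4 and Atoh8 and below them for Tcf4, and all 4 points of Id3 lie at the top of the scale of 16, marked by the dashed line.

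Id1, an Id gene often used as a readout of BMP signalling, rose 2.50-fold. Its probe (mMC014959) read 14.31 and 14 in the control arrays and 15.62 and 15.33 in the overexpression arrays. Both overexpression arrays lay above both controls, and the 4 differences between an overexpression and a control array ran from 1.02 to 1.62. The log2 fold change was 1.32 ± 0.16 (SE; limma, adjusted p = 0.0115), with a 95% interval of 0.92 to 1.72, and 99.5% of all probes had a lower one. From the control mean to the top of the scale there was room for a rise of 1.85, so a larger difference could not have been read from this probe.

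Id4, an Id gene known for its part in neural and bone-forming cells, rose 2.19-fold, with a wide spread between the controls. Its probe (mMC016307) read 8.12 and 7.34 in controls and 8.89 and 8.83 in overexpression samples. The control arrays differed by 0.78, a gap larger than that of 99.4% of all probes, whereas the overexpression arrays differed by 0.06, and the groups did not overlap. The log2 fold change was 1.13 ± 0.25 (SE; limma, adjusted p = 0.0419), with a 95% interval of 0.50 to 1.76. Without control replicate 2, the lower of the controls, the log2 fold change was 0.74, and without control replicate 1 it was 1.52.

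Of the other Id genes, Id2 did not pass and Id3 could not be compared. The Id2 probe (mMC003474) read 8.03 and 7.58 in controls and 7.95 and 7.67 in overexpression samples, so the groups overlapped. Its log2 fold change was 0.005 ± 0.19 (SE; limma, adjusted p = 0.989), and the 95% interval of the fold ran from 0.727 to 1.39, which leaves out changes the size of those of Id1 and Id4 at their estimates. The Id3 probe (mMC023409) read 16 and 15.87 in controls and 15.98 and 16 in overexpression samples, all within 0.15 of the maximum, as did 110 probes on all 4 arrays. A rise of Id3 could not be measured, a fall would have been visible only if it brought the signal off the top, and no fold is given.

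Atoh8, the bHLH gene of the atonal family, rose 1.75-fold. Its controls were 0.19 apart and its overexpression arrays 0.14, beside a median gap of 0.13 over all probes in either group. Its probe (mMC005163) read 8.58 and 8.39 in controls and 9.36 and 9.22 in overexpression samples. Both overexpression arrays lay above both controls, and the 4 differences between arrays ran from 0.64 to 0.97. The log2 fold change of 0.81 ± 0.12 (SE) passed in limma (adjusted p = 0.0176), with a 95% interval of the fold from 1.42 to 2.16. It stayed under the 2-fold threshold of the study.

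Promoter sequence is shown for Id4 and Atoh8, which rose, and for Id2, which did not pass. The windows below are the 250 bases before the transcript start in RefSeq on GRCm38.p6, written 5′ to 3′ on the gene's strand. Capitals mark E-boxes, written CANNTG, and the element GGCGCC, a GC-rich sequence of the type bound by BMP-activated Smads. They lie at chr13:48260866-48261115, plus strand, for Id4, at chr6:72235578-72235827, minus strand, for Atoh8, and at chr12:25096093-25096342, minus strand, for Id2.
Id4: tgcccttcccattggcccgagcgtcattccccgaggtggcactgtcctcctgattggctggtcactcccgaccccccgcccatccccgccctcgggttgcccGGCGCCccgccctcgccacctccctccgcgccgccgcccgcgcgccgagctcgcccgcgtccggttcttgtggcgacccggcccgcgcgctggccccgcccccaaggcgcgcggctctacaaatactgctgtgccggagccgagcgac
Atoh8: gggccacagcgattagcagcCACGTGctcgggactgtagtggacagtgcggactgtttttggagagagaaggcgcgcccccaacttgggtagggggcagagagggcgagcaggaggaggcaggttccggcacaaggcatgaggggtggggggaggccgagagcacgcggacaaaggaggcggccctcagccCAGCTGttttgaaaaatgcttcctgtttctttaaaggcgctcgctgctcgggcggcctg
Id2: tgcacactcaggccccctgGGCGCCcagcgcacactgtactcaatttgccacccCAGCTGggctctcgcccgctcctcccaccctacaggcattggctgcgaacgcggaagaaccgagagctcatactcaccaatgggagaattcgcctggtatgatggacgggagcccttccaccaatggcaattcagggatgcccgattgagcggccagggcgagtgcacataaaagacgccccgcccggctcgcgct
The Id4 window held 1 GGCGCC, from base -148 to -143 counted from the start, and 0 E-boxes. The Atoh8 window held 2 E-boxes, from -230 to -225 and from -59 to -54, and 0 GGCGCC. The second of these reads CAGCTG, a core preferred by many E-protein dimers. The Id2 window held 1 of each, with GGCGCC from -231 to -226 and CAGCTG from -196 to -191. Each kind of match thus occurred both in a gene that rose and in Id2.

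Windows were used for 6 of the 8 genes, with 3 of them for Tcf12. None was used for Id1 or Tcf4. The selection of member windows left out the chromosome of Tcf4 by a fixed filter. The absence of a Tcf4 window therefore does not show that RefSeq lacks one. Id1 lies on another chromosome, so this filter does not account for its missing window. On both strands of 32851 RefSeq windows of this length, 66.2% held CANNTG, 13.0% held CAGCTG, 17.2% held CAGGTG or its complement CACCTG, 9.59% held GGCGCC and 0.167% held the Smad palindrome GTCTAGAC. CANNTG includes the CAGCTG and CAGGTG matches. Among the 8 member windows, 2 held GGCGCC, 3 held CAGCTG, and 0 held CAGGTG or GTCTAGAC. The Id3 window held 0 matches to any of these motifs. The Tcf3 window held 1 E-box, from -54 to -49, and 2 of the 3 Tcf12 windows held 1 each. A match is a run of letters and says nothing of binding in these cells.

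**Figure D2:**
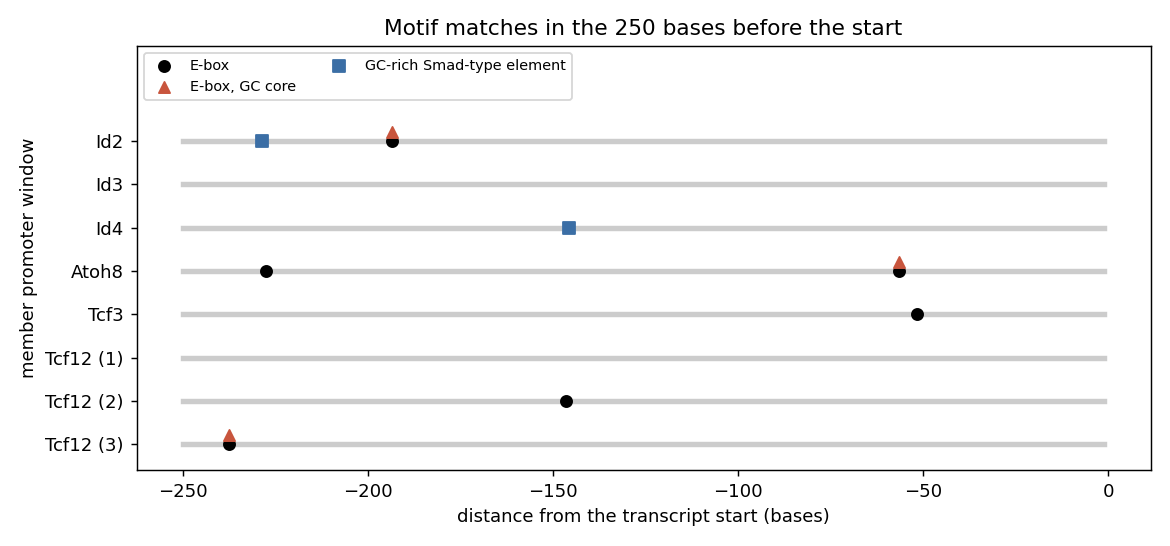
Positions of motif matches (horizontal axis, bases from the transcript start) in the 8 RefSeq promoter windows of 6 member genes (vertical axis; Tcf12 has 3). Black circles are E-boxes, red triangles the E-boxes that read CAGCTG, and blue squares the GC-rich element, which appears in the Id2 and Id4 windows only.

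Among the E proteins, the partners that Id proteins hold back, Tcf4 fell and the others did not pass. The Tcf4 probe (mMR030584) read 14.59 and 14.60 in controls and 13.75 and 13.21 in overexpression samples. The controls were 0.01 apart and the overexpression arrays 0.54 apart, a wider gap than that of 97.0% of all probes, yet both lay below the controls. The fall was 2.17-fold, with a 95% interval of 1.56 to 3.00 (limma, adjusted p = 0.0228). Of all probes, 1.01% had a lower log2 fold change. This gene encodes the E protein E2-2, and the probe is the only one listed under its name. The symbol Tcf4 has also been used for Tcf7l2, a WNT effector, but that gene had 2 probes under its own name, whose log2 fold changes were 0.30 and -0.12 (limma, adjusted p = 0.128 and adjusted p = 0.531).

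Tcf12, which encodes HEB, was not called. Its probe (mMC024483) read 11.42 and 11.39 in controls and 11.32 and 11.48 in overexpression samples, so the groups overlapped. The log2 fold change was -0.005 ± 0.11 (SE; limma, adjusted p = 0.983), and the interval of the fold, from 0.823 to 1.21, leaves out a fall as large as that of Tcf4 at its estimate.

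Tcf3, which encodes E12 and E47, was read by a probe annotated under its older name Tcfe2a (mMC017559). It read 12.48 and 12.58 in controls and 12.69 and 12.44 in overexpression samples, and the groups overlapped. The log2 fold change was 0.04 ± 0.13 (SE; limma, adjusted p = 0.880), with an interval of the fold from 0.822 to 1.28. A second probe (mMC011166) carries the symbol Tcf3 in the same annotation. Tcf3 was also a symbol of Tcf7l1, a WNT pathway factor with no HLH domain, and 0 probes carry the name Tcf7l1, so which of these genes this probe reads is uncertain. It read 9.43 and 9.61 in controls and 9.80 and 9.87 in overexpression samples. These groups did not overlap, but the log2 fold change of 0.32 ± 0.11 (SE) had an adjusted p of 0.124 in limma and an unadjusted p of 0.0362, so it was not called.

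**Figure D3:**
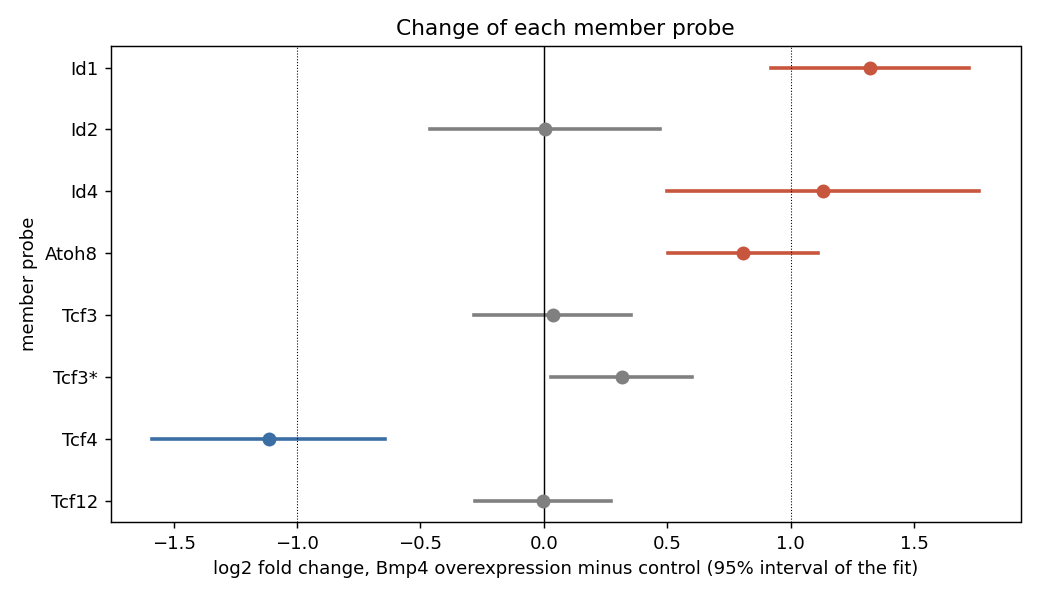
Log2 fold change of 8 member probes, Bmp4 overexpression minus control (horizontal axis), with the 95% interval of the limma fit from 2 arrays a group. Red probes rose, the blue probe fell and grey probes did not pass an adjusted p of 0.05; dotted lines mark 2-fold changes, and Id3, at the top of the scale, is left out.

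The 4 calls needed all 4 arrays. When any 1 of the 4 was left out, 1 residual degree of freedom remained and 0 member probes passed the adjusted threshold in limma, as did 0 of all probes. At an unadjusted p under 0.05, the fit called 4 member probes without control replicate 1 and 5 without control replicate 2. It called 3 without replicate 1 of the Bmp4 overexpression group and 3 without its replicate 2. The same fits gave an unadjusted p under 0.05 for 20.1%, 26.6%, 22.2% and 24.6% of all probes, in that order. The groups did not overlap for the called members, so leaving out 1 array could not turn their direction. Only the sizes of the changes could move in these fits. The log2 fold change of Id1 lay between 1.17 and 1.48, that of Atoh8 between 0.71 and 0.90, and that of Tcf4 between -1.39 and -0.84.

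**Figure D4:**
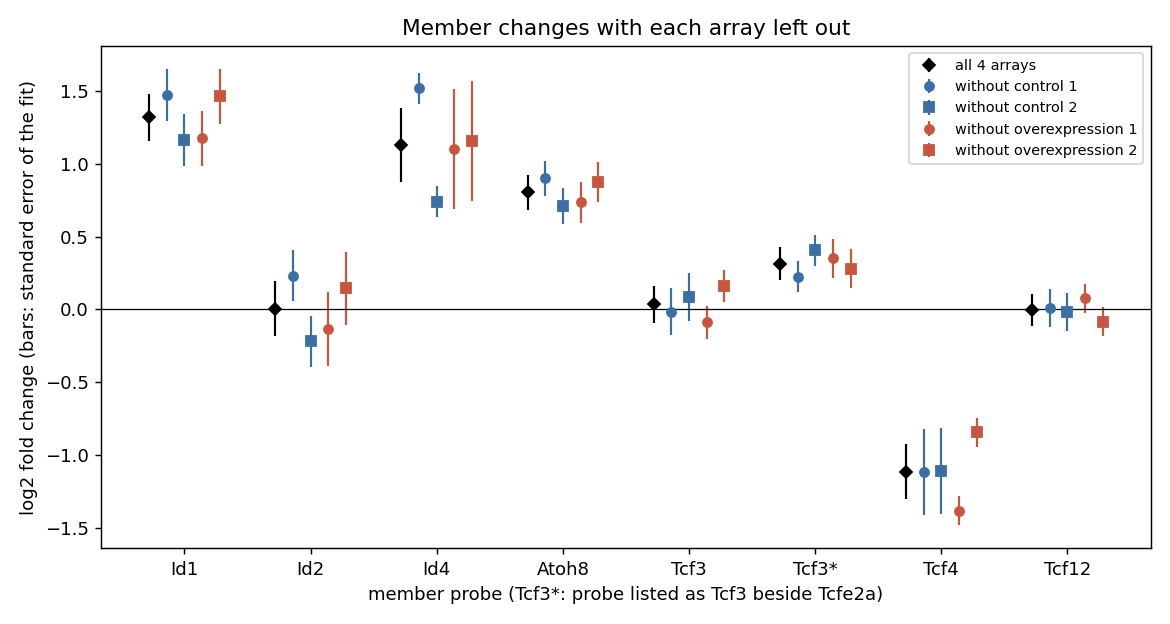
Log2 fold change (vertical axis; bars are the standard error of the limma fit) of 8 member probes (all but Id3) with all 4 arrays (black diamonds) and with 1 control array (blue) or 1 Bmp4 overexpression array (red) left out. Id1, Id4 and Atoh8 stay above 0 and Tcf4 below 0 in every fit, as they must where the groups do not overlap. Id4 moves most, between 0.74 and 1.52.

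The genes whose pattern over the 4 arrays was most like that of Id1 were sought among the brightest probes of all named genes. Likeness was the root mean square difference of the log2 values after each probe's own mean was removed. The nearest were Dusp26, a phosphatase gene, at 0.03, Nrtn, which encodes the growth factor neurturin, at 0.03, and Aldh3b2, an aldehyde dehydrogenase gene, at 0.03. Spon2, a secreted matrix protein gene, and Krtap19-4, a keratin-associated protein gene, followed at 0.04 each. Their log2 fold changes were 1.35, 1.34, 1.31, 1.24 and 1.29 in that order, and with 4 arrays such likeness is a description of these samples. The control values of Dusp26, 6.54 and 6.29, lay below the lower quartile of all probes, 6.79.

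Genes that act with or upstream of the Id and E proteins were described as 6 lists, each gene by its brightest probe. Of 102 measured genes, 10 rose, 11 fell and 81 did not pass, so that 20.6% passed, beside 16.9% of all named genes, of which 7.39% rose and 9.54% fell. Their median log2 fold change was 0.02, beside 0 for all named genes. By this count the lists as a whole were close to the array's background, and the changes lay in single genes.

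The tissue-restricted bHLH partners of E proteins included changes in both directions. Of 39 measured genes, 2 rose, 4 fell and 33 did not pass, with a median log2 fold change of -0.005, and 9 were dimmer than the lower quartile in each group. Twist1 and Twist2, bHLH genes of the arch mesenchyme, fell. Twist1 read 14.40 and 14.38 in controls and 13.12 and 13.29 in overexpression samples, and its log2 fold change was -1.19 ± 0.11 (SE; limma, adjusted p = 0.00667). Twist2 read 12.63 and 12.81 against 11.23 and 11.04, and its log2 fold change was -1.59 ± 0.13 (SE; limma, adjusted p = 0.00477). Both genes had higher values in both controls than in either overexpression array. Hand1, a bHLH gene of the distal arch, rose from 7.95 and 8 to 9.90 and 9.93 (log2 fold change 1.94 ± 0.10, SE; limma, adjusted p = 0.00201). Its relative Hand2 read 8.59 and 8.56 against 8.66 and 8.45 and was not called (log2 fold change -0.02). The tendon factor gene Scx and Tcf15, a mesodermal bHLH gene, fell, with log2 fold changes of -0.68 and -0.64, and the neuronal gene Nhlh2 rose by 0.68 from control values below the lower quartile. The myogenic genes Myod1 and Myog were not called, at 0.13 and 0.02 on the log2 scale.

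Of 12 Hes, Hey and related bHLH repressors, some of which act below Notch, 2 rose, 3 fell and 7 did not pass. Their median log2 fold change was 0.04. Hey2 fell most, from 12.31 and 12.51 to 10.84 and 10.89 (log2 fold change -1.54 ± 0.12, SE; limma, adjusted p = 0.00436). Heyl and Hes3 fell by 0.65 and 0.50 on the log2 scale, Heyl to below the lower quartile. Hes6, which is known to oppose Hes1, rose by 0.63, and Hes2 rose by 0.50. The Hes2 call was lost with housekeeping centring (adjusted p = 0.0995 in limma) and with a variance trend (adjusted p = 0.0642), and that of Hes3 with a variance trend (adjusted p = 0.0590). Hes1, a repressor that Id proteins can bind, was not called (log2 fold change 0.25; limma, adjusted p = 0.223).

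The list of BMP receptors, Smads and regulators of the signal, inhibitors among them, held 1 rise and 1 fall among 16 measured genes. The other 14 did not pass, and the median log2 fold change was 0.08. Smad6, an inhibitory Smad, rose from 10.76 and 10.69 to 13.10 and 13.14. The type I receptor gene Bmpr1b fell, with a log2 fold change of -1.22 at its brightest probe, while neither of its other probes was called, at -0.28 and -0.34. Smad1, Smad5 and Smad4, which transmit the signal, were not called, at -0.17, 0.09 and 0.23.

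Of 12 measured cofactors of E proteins and factors of Id stability, 2 rose, 2 fell and 8 did not pass, with a median of 0.04. Usp1 encodes the ubiquitin protease known to remove ubiquitin from Id proteins and so protect them from breakdown, and it also acts in DNA repair. It read 15 and 15.15 in controls and 13.94 and 14.09 in overexpression samples, a log2 fold change of -1.06 ± 0.12 (SE; limma, adjusted p = 0.00946). Its other probes fell as well, with -1.12 and -0.71. Ldb1, a LIM-domain binding cofactor, rose by 0.71, and Lmo2, which joins E proteins and Tal1 in blood and vascular cells, fell by 0.53 on the log2 scale. Cbfa2t3, a corepressor of the ETO family, rose by 0.86 at its brightest probe and fell by 0.44 at the other, so its direction is not settled.

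Partners of Id proteins outside the bHLH family, the Ets, Pax and Rb proteins, gave 1 rise, 0 falls and 10 that did not pass among 11 measured genes, with a median log2 fold change of -0.04. The rise was that of Ets2, from 13.60 and 13.64 to 14.25 and 14.19. Of 12 cell cycle inhibitors and other E-box regulated genes, 2 rose, 1 fell and 9 did not pass, with a median of 0.12. Cdkn1a, the p21 inhibitor that E proteins can activate, rose from 10.17 and 10.29 to 11.22 and 11.17 (log2 fold change 0.97 ± 0.11, SE; limma, adjusted p = 0.00933), and its other probe rose by 0.56. Cdh1, the gene of E-cadherin and also an epithelial marker, rose by 0.92 and Cdkn2c, another inhibitor, fell by 0.60. Cdkn1c lay at the top of the scale on all 4 arrays.

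**Figure D5:**
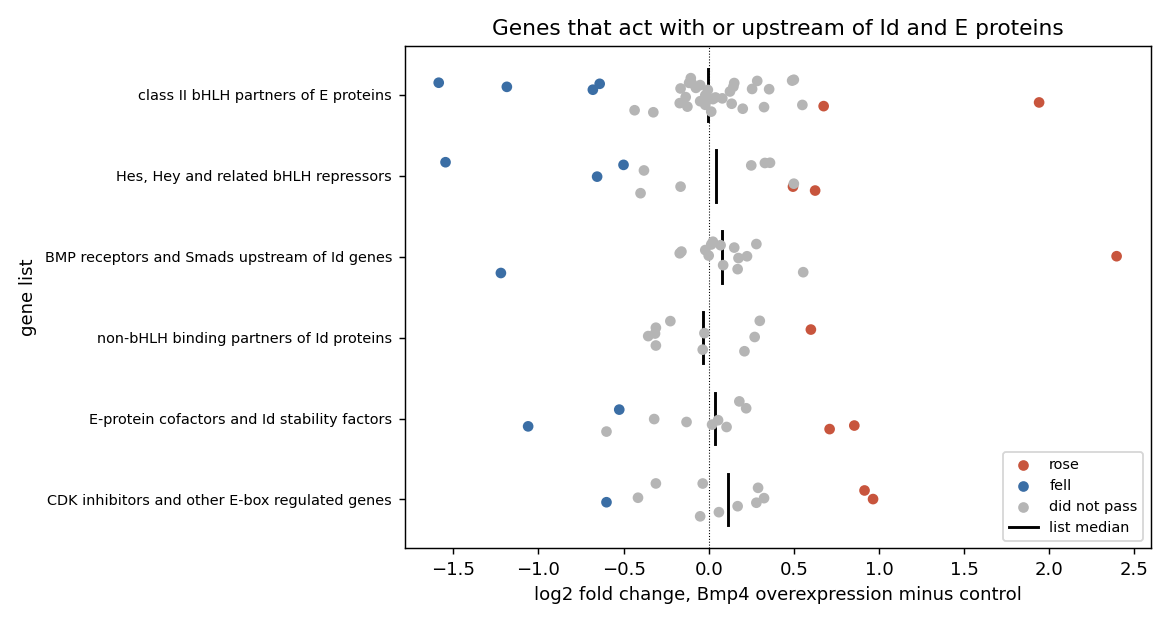
Log2 fold change, Bmp4 overexpression minus control (horizontal axis), of 102 measured genes in 6 lists (vertical axis), each gene by its brightest probe; red genes rose, blue genes fell, grey genes did not pass an adjusted p of 0.05 and black bars are list medians. Each median lies near 0, between -0.04 and 0.12, and Smad6, Hand1, Twist2 and Hey2 lie farthest out.

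Over the entire array, 1912 probes rose and 2515 fell in limma, or 1371 and 2927 when each array was centred on housekeeping genes, and the 4 member calls were the same in both. Some marker genes of several cell types differed between the groups in the same tissue. Of all named genes 16.9% passed, beside 11.1% of the endothelial, 20% of the neuronal and 28.6% of the erythroid list. The share was 37.5% for skeletal muscle, 42.9% for macrophages, 44.4% for mesenchyme and 60% for epithelium. The mean log2 level of the endothelial list was 10.01 on both controls and 10.30 on both overexpression arrays, and 1 of its 9 measured genes rose. The macrophage list lay between 7.97 and 8.01 in controls and between 8.49 and 8.59 in overexpression samples, and 3 of its 7 genes rose. For skeletal muscle 3 of 8 rose (8.99 to 9.06 against 9.36 to 9.45), for neurons 1 of 10 rose and 1 fell (8.72 to 8.81 against 9.02 to 9.05), and for epithelium 4 of 10 rose and 2 fell (10.54 to 10.62 against 10.79 to 10.92). For erythroid genes 0 of 7 rose and 2 fell (12.46 to 12.47 against 12.26 to 12.36). The mesenchymal list, the main tissue of the mandible, gave 2 rises and 2 falls among 9 genes, and its mean level was 12.20 to 12.23 in controls and 12.24 to 12.25 in overexpression samples. Of the markers, Pou4f1 and Nefl of the neuronal list and Fcgr1 of the macrophage list were dimmer than the lower quartile in each group, and the globin genes Hbb-y and Hba-x lay at the top of the scale. In whole mandibles, more or fewer cells of a type and more or less RNA per cell cannot be told apart, and the part of these marker shifts in the member changes was not tested.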

How the data were processed

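The authors deposited 1 table of log2 intensities, with 29922 probes on 4 arrays and 0 missing values. Per the labels' protocols, aminoallyl RNA made from total RNA carried Cy5, with 1 sample per array. The sorted deposited log2 values of the 4 arrays are identical (largest difference 0), as after quantile normalisation, and their maximum of 16 is the log2 of a 16-bit scale. Such values cannot show a shift of most genes. Scanner, background correction and probe filter are not stated in the labels. The number of arrays limits the precision.

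Probes were named from the platform annotation, which gives symbols only. Of 21020 named probes, 17558 had a symbol in current use, 3410 an older one that RefSeq (GRCm38.p6) lists as a synonym, and 52 neither, while 8902 probes had no name. Old symbols can mix genes, as for Tcf3.

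All probes entered 1 fit in R 4.3.3, using lmFit and eBayes of limma 3.58.1 (2 arrays against 2, two-sided, no covariate, no filter). P-values were adjusted by Benjamini-Hochberg across the array. The fit was also run on simulated data, and the outcome is not reported here. A gene that did not pass may still have changed. An exact permutation test of 2 against 2 cannot give a p below 0.333, so none was used. "Rose" and "fell" mean an adjusted p under 0.05. Genes of lists stand by their brightest probe. Named genes are all members, Bmp4, Twist1, Twist2, Hand1 and Hand2, up to 4 further genes with the smallest p in each list, and the 5 nearest to Id1; others (Hes2, Hes1, Myod1, Myog, Smad1, Smad4, Smad5, Cdkn1c, Tcf7l2) were picked once their values were known. The members and lists were chosen with earlier results of these data known. Alternatives were other centrings, an offset of 50 on the linear scale, filters on dim probes, other variance models, the mean of a gene's probes, a replicate block and each array left out.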

Additional observations from a re-analysis of the deposited data

How the results depend on the processing

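Median centring could change nothing, since all arrays had the same sorted values. The counts compared were those of the members, 3 higher and 1 lower, of all probes and of the related lists summed. They stayed within 1.5 times under housekeeping centring, the linear offset, both filters on dim probes, the variance trend and robust eBayes. Averaging a gene's probes changed the related lists to 10 higher and 14 lower. Within single lists, the 2 rises of the Hes and Hey list became 1 with housekeeping centring, the variance trend or the filter at the median. Its 3 falls became 2 with the variance trend or that filter. The 2 rises of the tissue-restricted bHLH list became 1 with that filter. The 1 rise of the receptor and Smad list became 2 with either filter or robust eBayes. The 2 falls of the cofactor and stability list became 3 with housekeeping centring, the linear offset, either filter, the variance trend or robust eBayes. Id2, below the median, has no value without the probes below the median. Both groups share replicate numbers, but deviations of same-numbered arrays correlated with r = -0.07 across probes, so the numbers gave no sign of pairing. With the replicate number as a block, 1 residual degree of freedom was left and 0 probes, 0 members and 0 related genes passed in limma in either direction, while 8724 probes, 5 members and 35 related genes had an unadjusted p under 0.05. The adjusted p-values with this block were 0.0745 for Id1, 0.0995 for Id4, 0.0769 for Atoh8 and 0.0880 for Tcf4, over log2 fold changes equal to those without it. With 1 array left out the counts were 0 to 0 for all probes, members and related genes, and 6020 to 7947 probes had an unadjusted p under 0.05. Centring on 8 measured housekeeping genes turned the signs of values near 0. Id2 went to -0.057 and Tcf3 (Tcfe2a probe) to -0.027, and neither passed. The mean of these housekeeping genes was 0.06 higher in overexpression samples, but they were not steady. Their log2 fold changes ran from -0.475 for Hprt to 0.525 for Eif4a2, which rose past the adjusted threshold. With 1 array left out, Id2 ranged from -0.22 to 0.23, this Tcf3 probe from -0.09 to 0.16, Tcf12 from -0.085 to 0.075 and Hand2 from -0.125 to 0.085. The top of the scale limits Id3 and, from above, Id1; low signal limits genes below the lower quartile.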

Other observations

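Some genes of the related lists had probes that differed in direction, size or call. Crebbp, a coactivator gene that serves E proteins and Smads, had a log2 fold change of -0.60 at its brightest probe (limma, adjusted p = 0.0508), and its other probes gave 0.55 and -0.55, both past the adjusted threshold. Thbs1, the thrombospondin gene that Id1 is known to repress, had -0.05 at its brightest probe and -0.90 at the other, which passed (limma, adjusted p = 0.0143). Cdkn1b, the p27 inhibitor gene, had -0.31 at its brightest probe and did not pass, while its other probe, with group means below the lower quartile in both groups, gave -0.49 (limma, adjusted p = 0.0378). These genes were chosen after their values were seen. Which transcripts each probe reads is not known here.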
